A study of Urocitellus parryii with 3 samples.

Results

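miR-33, miR-103 and miR-107 (mmu-miR-33, mmu-miR-103 and mmu-miR-107 on the array) are microRNAs (miRNAs, short RNAs that repress the mRNAs they pair with) carried in introns of metabolic genes. They were 3 of the 567 mouse miRNA entries on an array hybridised with RNA from livers of arctic ground squirrels (Urocitellus parryii), hibernating rodents. They were taken by entry name among the spots that are not controls, a rule that uses no measured value, though earlier results of these data were known when they were chosen. Of the 567 entries, 135 were measured, meaning that they had a probe detected on all 3 arrays, and miR-33, miR-103 and miR-107 were among these.

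The groups were 3 stages: early arousal, when the animal begins to rewarm, late torpor, when the body is cold and metabolism depressed, and post-reproduction, outside hibernation. Each stage was 1 pool of equal amounts of total RNA from animals of that stage, with no further treatment stated, on 1 Cy3 array. All 3 arrays lay on 1 slide. The number, sex and age of the pooled animals are not given in the sources used here. No spread between animals could be measured, no test between stages was possible, and stage, pool and array cannot be told apart. The probes were designed on mouse miRNAs, and whether the squirrel's sequences match them was not tested.

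miR-33 lies in an intron of Srebf2, the gene of a transcription factor that switches on cholesterol synthesis and uptake. In mice it represses Abca1, which exports cholesterol from cells, and enzymes of fatty acid oxidation. miR-103 and miR-107 lie in introns of pantothenate kinase genes (Pank3 and Pank2 for miR-103, Pank1 for miR-107), whose enzymes start coenzyme A synthesis. The pair share a seed and differ by a base near the 3′ end. In mice they lower insulin sensitivity, and caveolin-1, a partner of the insulin receptor, is among their targets. Srebf2, Pank1, Pank2 and Pank3 are all named in the RefSeq annotation of the squirrel genome (mUroPar1.hap1).

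Each miRNA had 2 probes with 10 spots each on every array. The 2 probes of a miRNA share an end of the target and differ by 1 base in length. In the mouse coordinates of the file headers (mm9), the miR-33 probes address 21 and 20 bases at chr15:82028557-82028577 and chr15:82028558-82028577. Those of miR-103 address 18 and 17 bases at chr11:35595954-35595971 and chr11:35595955-35595971, within the Pank3 copy. Mature miR-103 made from the Pank2 copy has the same sequence and cannot be told apart from it. The miR-107 probes address 20 and 19 bases at chr19:34895190-34895209 and chr19:34895190-34895208. Whether the miR-103 probes also catch miR-107 RNA, or the reverse, was not tested, so the pair need not be separate measurements.

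Markers of liver were present: miR-122, miR-192 and miR-194, miRNAs of hepatocytes, were detected on each array, and the brightest probe of miR-122 lay between 49887 and 59409 intensity units. The red blood cell miRNAs miR-144, miR-451 and miR-486 moved between the arrays. The intensities of their brightest probes summed to 2507 units in early arousal, 4144 units in late torpor and 1993 units post-reproduction, with 3 of 3 detected each time. The leukocyte miRNAs miR-223, miR-142-3p and miR-142-5p summed to 549, 785 and 606 units in the same order, again with 3 of 3 detected. The pancreatic miRNAs miR-375, miR-216a and miR-217 were not detected on any array. Of the muscle miRNAs miR-1, miR-133a and miR-206, 1, 2 and 0 were detected in the same order of stages, with sums of 20.8, 33.4 and 15.5 units. Of the neural miRNAs miR-124, miR-9 and miR-128, 1 was detected on each array, with sums of 37.3, 54.6 and 38.5 units. The part of such cells in the differences below was not tested.

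miR-103 was dimmest in early arousal. Its 18-base probe averaged 352 ± 26.4 intensity units for early arousal, 432 ± 30.4 units for late torpor and 525 ± 33 units for post-reproduction (mean and SD of 10 spots each). Its 17-base probe averaged 109 ± 2.53 units for early arousal (9 spots), 121 ± 4.26 units for late torpor (9 spots) and 148 ± 6.53 units for post-reproduction (10 spots). The order of the stages was thus the same in both probes, early arousal lowest and post-reproduction highest. On the 18-base probe the highest early arousal spot, at 386 units, passed the lowest late torpor spot, at 384, while the spots of post-reproduction, from 477 units up, lay above all others. On the 17-base probe the highest early arousal spot, at 112.7 units, likewise passed the lowest late torpor spot, at 111.4. These are deposited intensities. Among the probes detected on all arrays, the 75th percentile was also highest on the post-reproduction array, so the arrays were scaled before they were compared. Over all spots, however, the late torpor array had the highest median, at 1.15 units against 1.13 on the post-reproduction array. The 75th percentile of the 250 probes detected on all arrays was 350.4 units for early arousal, 349 units for late torpor and 398 units for post-reproduction, and each array's log2 values were set relative to it.

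miR-107 was brightest in post-reproduction too, but early arousal and late torpor lay close together. Its 20-base probe averaged 525 ± 24.4 units for early arousal, 544 ± 23.8 units for late torpor and 678 ± 21.3 units for post-reproduction (10 spots each). Its 19-base probe had 202 ± 4.71, 206 ± 4.55 and 253 ± 9.72 units in the same order. On both probes the spots of early arousal and late torpor overlapped, and those of post-reproduction lay above both, from 648 units on the first probe and from 239 on the second.

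miR-33 stood near the background of the arrays. Its 21-base probe averaged 11.9 ± 1.98 units for early arousal, 13.9 ± 2.16 units for late torpor and 13.2 ± 1.74 units for post-reproduction (10 spots each), and the spots of the 3 arrays overlapped widely. Of these 10 spots, 8, 10 and 9 were marked well above background. The 20-base probe had none so marked on any array, with means of 1.55, 1.92 and 1.79 units, and it was left out. Negative control spots, which carry no miRNA probe, had medians of 1.36, 1.69 and 1.21 units and 95th percentiles of 5.29, 5.25 and 5.31. Of the 672 such spots per array, 11, 6 and 14 exceeded the mean of the 21-base probe. Viral miRNA probes, which have no target in a squirrel, give another measure of background: 3, 4 and 4 of 40 were brighter than that probe, up to 22.2, 26.5 and 26.6 units for mghv-miR-M1-2. Detection at this level does not show that miR-33 was present. The opposite strand of its hairpin, miR-33*, was not detected: the scanner program's total signal was -2.33 ± 1.44 for early arousal, -0.248 ± 1.27 units for late torpor and -2.66 ± 1.52 units for post-reproduction (the program's error). Of the 3 star entries sought by name for these miRNAs, only 1, miR-33*, was on the array.

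**Figure D1:**
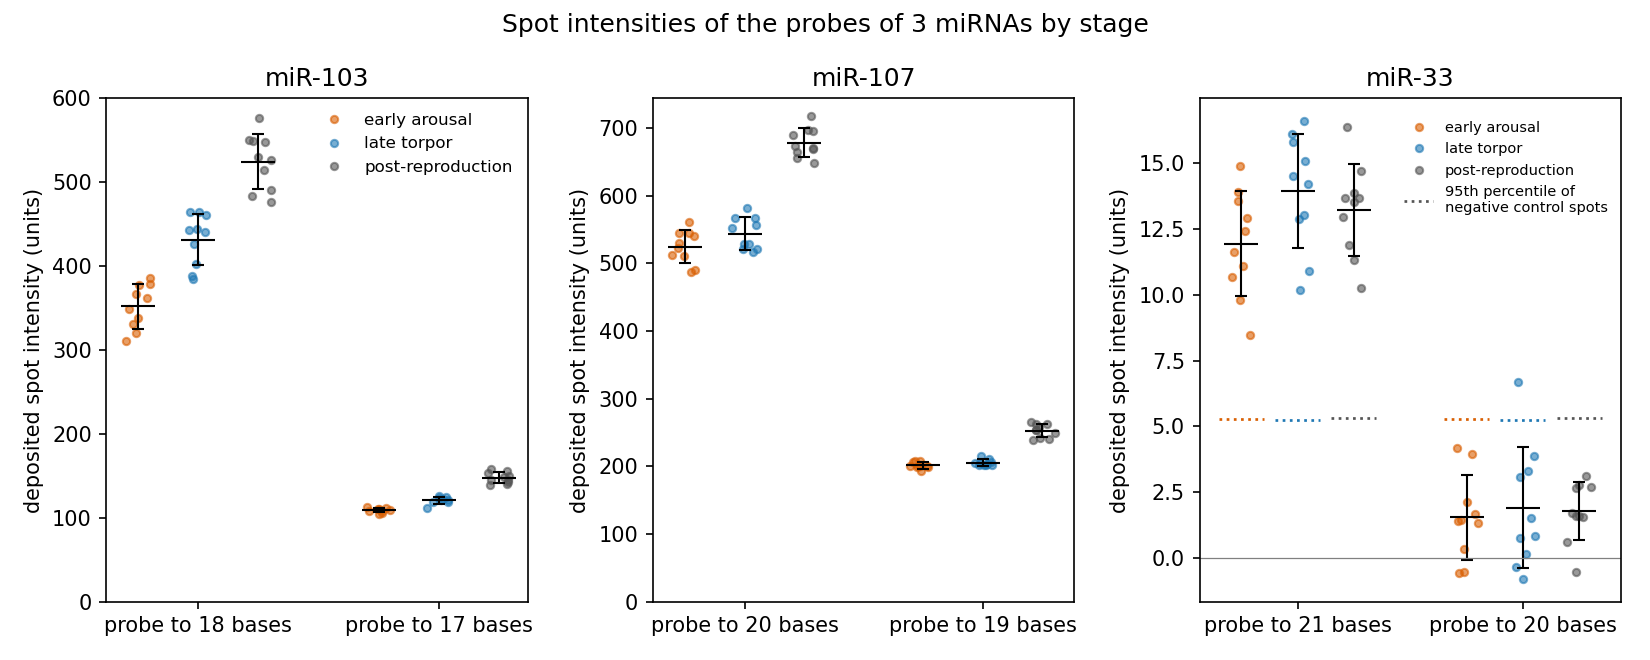
Deposited intensity (linear y axis, units) of every kept spot of the 2 probes of miR-103, miR-107 and miR-33 in early arousal, late torpor and post-reproduction; bars are means with SD over spots, and dotted lines mark the 95th percentile of negative control spots. Post-reproduction spots lie highest for both probes of miR-103 and miR-107, and the 20-base probe of miR-33 lies at the level of negative controls.

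The first comparison, between the stages within hibernation, asks what changes as the animal rewarms. To pass the rule of size, a log2 difference had to reach 1 (2-fold) in either direction, exceed 2 times its standard error (SE) and keep its sign across all measured probes. This SE comes from spots of 1 array per stage, and no difference carries a p-value. Of the 135 measured miRNAs 4 (2.96%) passed the rule, and 0 of miR-33, miR-103 and miR-107 did. Scaled log2 values of miR-103 were -0.84 in early arousal and -0.61 in late torpor, a difference of -0.23 ± 0.026 (SE from spots) or 0.854-fold (95% interval from spots 0.825 to 0.885). It was -0.075 when the median over the detected probes was used for scaling, and -0.018 with the 75th percentile over all probes. Less of a miRNA in each cell and fewer cells that hold it cannot be told apart in such RNA. The same spot positions exist on every array. With the scaling used here, and without scaling, miR-103 was lower in early arousal at 18 of the 18 positions kept on both arrays. As scaled here, the gap was 0.052 to 0.39 on the log2 scale. The 75th percentile over all probes raises every position by 0.21. The shorter probe, with positions from -0.19 to -0.052 as scaled here, then lies above 0. The longer probe, with -0.39 to -0.22, stays below 0, so the probes differ in sign under that setting. Of the 135 miRNAs 38 had a lower difference, and the median of all was -0.094, so miR-103 stood 0.13 below it.

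miR-107 hardly differed between these stages, with -0.11 in early arousal and -0.062 in late torpor. The difference of -0.046 ± 0.016 or 0.969-fold (95% interval from spots 0.947 to 0.990) was negative at 17 of 20 positions, but it was above 0 under 4 of the 9 alternatives, at up to 0.16. miR-33 had -4.89 in early arousal and -4.67 in late torpor. Its difference of -0.23 ± 0.11 rested on 1 probe and was negative at 6 of 10 positions, between -0.62 and 0.24.

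miR-103 was therefore lower against miR-107 in early arousal than in late torpor, by 0.18 ± 0.031 on the log2 scale (95% interval from spots 0.12 to 0.24), a value that the scaling of whole arrays cannot move. All 4 pairings of a miR-103 probe with a miR-107 probe gave the same sign, with gaps from -0.27 to -0.097. The 2 probes of miR-103 did not give the same size, however, at -0.30 ± 0.048 and -0.15 ± 0.021. Both probes lie outside the interval from spots of miR-103, which leaves out the spread between probes. Their range of 0.15 was larger than the median of 0.064 among the 105 miRNAs with at least 2 measured probes, 24 of which had a range at least as large. A gap the size of that between miR-103 and miR-107 was reached between probes of a miRNA in 16 of the 105.

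**Figure D2:**
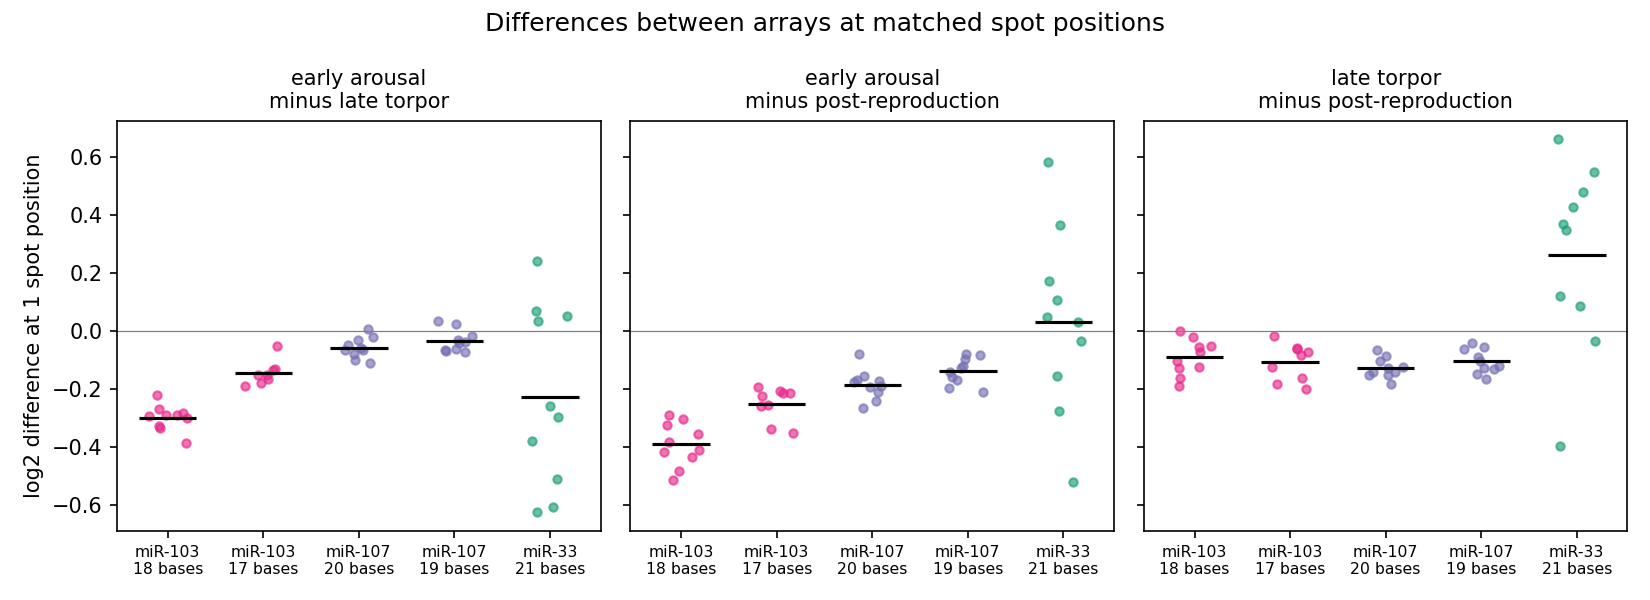
Log2 difference of scaled intensity (y axis) at each spot position kept on both arrays, by probe, in the 3 comparisons, with black bars at the mean. All positions of miR-103 lie below 0 in each comparison, while those of miR-33 spread to both sides of 0.

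The second comparison set early arousal against the animals outside hibernation. Here 5 of the 135 measured miRNAs (3.70%) passed the rule of size, and again 0 of the 3 miRNAs. This comparison and the next share the post-reproduction array, and it shares the early arousal array with the first. miR-103 stood at -0.84 for early arousal, against -0.52 for post-reproduction. The difference of -0.32 ± 0.025 or 0.800-fold (95% interval from spots 0.773 to 0.828) was the largest of miR-103 and was negative at 19 of 19 positions. Both probes were lower, by 0.39 ± 0.045 for the 18-base probe and 0.25 ± 0.023 for the 17-base probe. The interval from spots leaves out the spread between probes, and both probes lie outside it. Of the 135 miRNAs 25 had a lower difference, and miR-103 stood 0.38 below the median of 0.062.

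miR-107 stood at -0.11 for early arousal, against 0.054 for post-reproduction, a difference of -0.16 ± 0.016 or 0.894-fold (95% interval from spots 0.874 to 0.914). It was negative at 20 of 20 positions, and 39 of the 135 miRNAs had a lower one. The difference of miR-103 was lower than that of miR-107 by 0.16 ± 0.030, with probe pairings from -0.25 to -0.066. Among the 105 miRNAs with at least 2 measured probes, 20 had a range between probes at least as large as this gap. The range between the miR-103 probes was 0.14. miR-33 stood at -4.89 for early arousal, against -4.93 for post-reproduction, which did not differ beyond the spread of the spots: 0.031 ± 0.10. The sign of that value turned under 4 of its 8 alternatives.

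The third comparison asked how late torpor differs from the time outside hibernation. Of the 135 measured miRNAs 3 (2.22%) passed the rule, and 0 of these 3 were miR-33, miR-103 or miR-107. Both miR-103 and miR-107 had negative differences, whose size depended on the scaling. miR-103 had -0.61 in late torpor and -0.52 in post-reproduction, a difference of -0.095 ± 0.026 or 0.936-fold (95% interval from spots 0.905 to 0.970), negative at 19 of 19 positions. miR-107 had -0.062 in late torpor and 0.054 in post-reproduction, a difference of -0.12 ± 0.016 or 0.922-fold (95% interval from spots 0.903 to 0.943), negative at 20 of 20 positions. Without scaling they were at -0.29 and -0.31, and with the 75th percentile over all probes at -0.49 and -0.51. Against each other they differed by 0.022 ± 0.030 (95% interval from spots -0.037 to 0.081). With the median of all measured miRNAs at 0.13, miR-103 stood 0.23 and miR-107 0.25 below it, and 36 and 33 of the 135 had a lower difference.

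miR-33 had -4.67 in late torpor and -4.93 in post-reproduction, a difference of 0.26 ± 0.097 in a signal that lies near background. It was positive at 8 of 10 positions on the scaled arrays, but on the deposited intensities only 6 of the 10 were brighter in late torpor. The sign turned with the 75th percentile over all probes (-0.13) and with the total gene signal after scaling between arrays (-0.044).

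**Figure D3:**
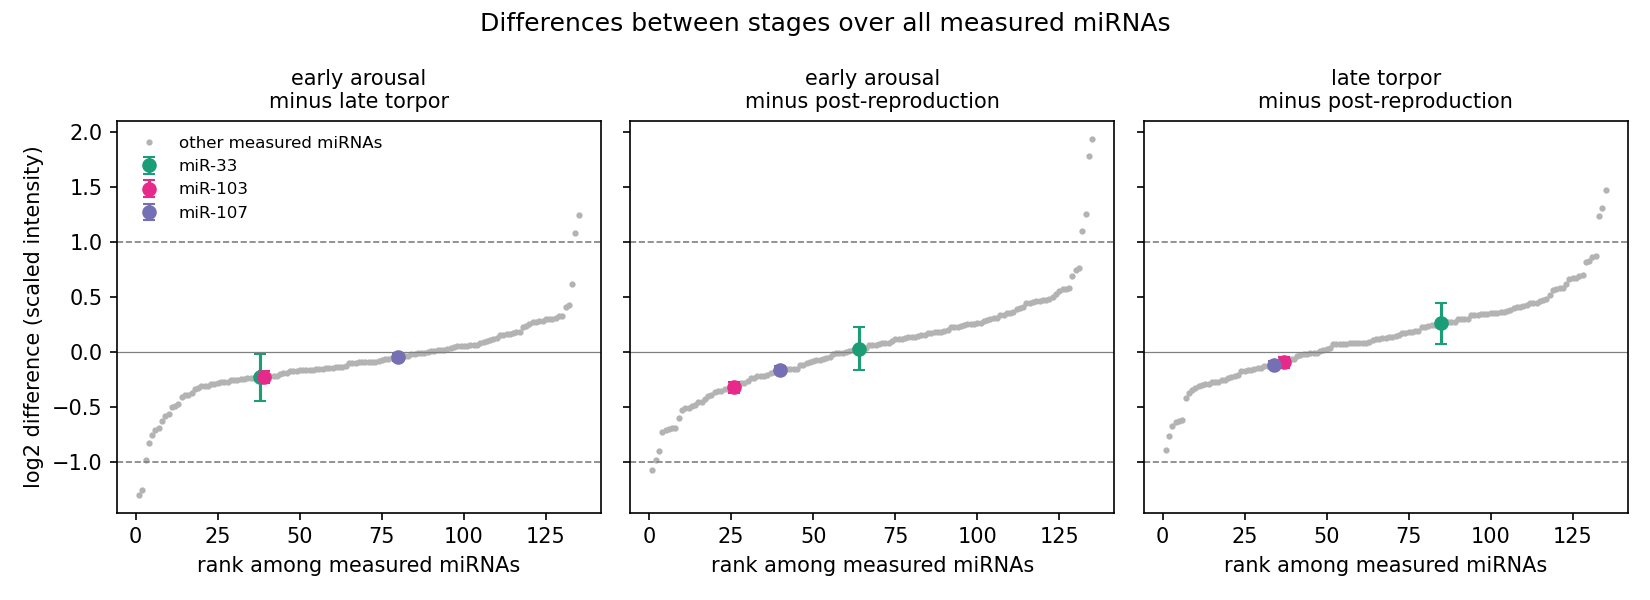
Log2 differences of scaled intensity (y axis) of the 135 measured miRNAs ordered by size (x axis, rank) in each comparison, with miR-33, miR-103 and miR-107 in colour and bars for the 95% interval from spots. Dashed lines at 1 and -1 mark the size a miRNA must reach, and the coloured points lie between them.

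The scanner program also wrote its own total signal per miRNA, given here without scaling between arrays. This total is on the program's own scale and is not the sum of the probe means above. It gave miR-103 as 328 ± 26.3 units for early arousal, 396 ± 32.2 units for late torpor and 481 ± 39.1 units for post-reproduction (the program's error). miR-107 had 516 ± 40.0, 537 ± 41.7 and 665 ± 51.8 in the same order, and miR-33 had 9.58 ± 2.21, 11.3 ± 2.0 and 10.7 ± 2.36. The program called each of the 3 detected on every array. The values of early arousal and late torpor lie within each other's errors for miR-107 and miR-33.

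Across the 9 alternatives and the setting used here, miR-103 was below the median of all measured miRNAs each time, by 0.11 to 0.17 between early arousal and late torpor, by 0.33 to 0.45 between early arousal and post-reproduction and by 0.20 to 0.33 between late torpor and post-reproduction. By construction, the 3 alternatives that shift whole arrays leave these distances as they are, so 6 of the 9 could move them. miR-107 lay 0.024 to 0.072 above the median in the first of these comparisons, and 0.20 to 0.25 and 0.24 to 0.30 below it in the other two. miR-33, which had a value in all but the strictest detection, stayed within 0.17 of the median in each.

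**Figure D4:**
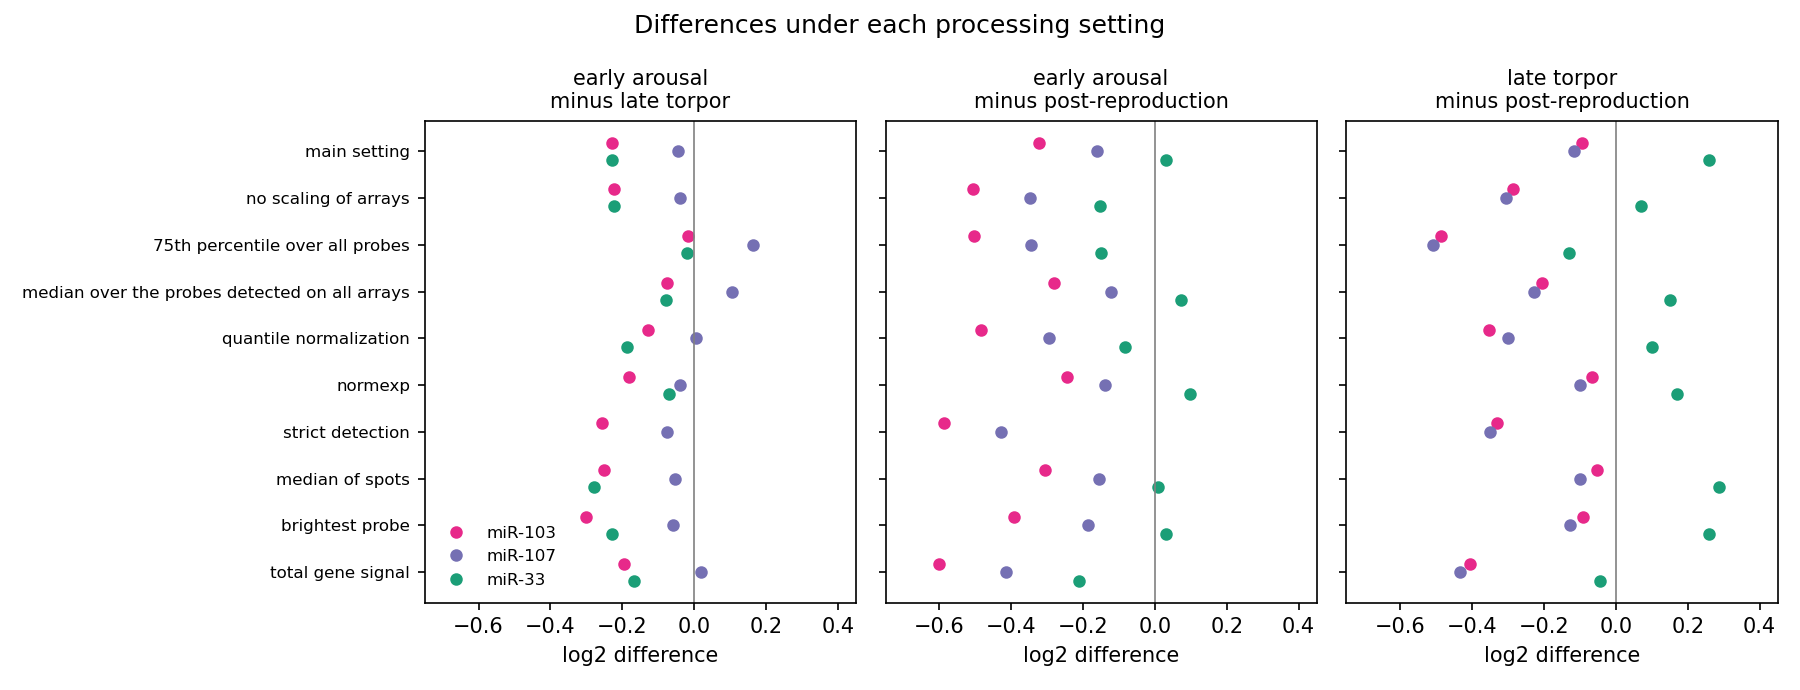
Log2 differences (x axis) of miR-103, miR-107 and miR-33 under the setting used here and the 9 alternatives (y axis), by comparison. miR-103 lies below 0 under each setting in each comparison, and miR-33 changes sides in both comparisons with post-reproduction.

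Other miRNAs that act on cholesterol, lipid or insulin pathways lay on both sides of 0 in each comparison. Of 29 such entries on the array 23 were measured, and 6 were not detected on any array. Between early arousal and late torpor 1 of the 23 was lower past the rule of size and 0 were higher, beside 2.96% of all measured miRNAs. Of the 23, 18 were below 0, beside 88 of all 135, with a median of -0.19 beside -0.094. The lowest was miR-144, which represses Abca1 in mice and is also a red blood cell miRNA, at -1.30 ± 0.036, and the highest was miR-26b at 0.41 ± 0.011. Between early arousal and post-reproduction 1 was lower past the rule and 0 were higher, beside 3.70% of all. Here 15 of the 23 were above 0, beside 75 of 135, with a median of 0.12 beside 0.062. The lowest was miR-378, carried in an intron of the coactivator gene Ppargc1b, at -1.08 ± 0.023. The highest was miR-322 at 0.45 ± 0.12, from 1 probe near background (14.9, 11.8 and 12.5 units in early arousal, late torpor and post-reproduction). Between late torpor and post-reproduction 1 was higher past the rule and 0 were lower, beside 2.22% of all. Here 19 of the 23 were above 0, beside 88 of 135, with a median of 0.15 beside 0.13. The highest was miR-144 at 1.48 ± 0.028 and the lowest miR-378 at -0.77 ± 0.026. Over the settings 0 to 2 of the list passed the rule in each of the first and second comparisons and 0 to 3 in the third. Of all measured miRNAs (135, or 128 with strict detection), 0 to 5, 2 to 6 and 1 to 7 passed it over the same settings. The median of this list turned sign in every comparison with the setting, from -0.23 to 0.017, from -0.17 to 0.16 and from -0.24 to 0.21.

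The miR-15 family, related to miR-103 and miR-107 at the 5′ end, gave values on the other side of 0 in both comparisons with post-reproduction. Of 7 entries on the array 6 were measured and 0 passed the rule in any comparison, beside 2.22% to 3.70% of all measured miRNAs. The values of miR-322 rested on 1 probe near background, at 14.9, 11.8 and 12.5 units in early arousal, late torpor and post-reproduction. Between early arousal and post-reproduction all 6 were above 0, from 0.079 for miR-497 to 0.57 for miR-15a, although miR-195 and miR-497 were below 0 without scaling, after quantile normalization, with the 75th percentile over all probes, with strict detection and with the total gene signal. Between late torpor and post-reproduction all 6 were above 0, from 0.12 for miR-322 to 0.88 for miR-15b, but 2 or 3 of them were below 0 under those same settings. Between early arousal and late torpor 5 of 6 were below 0, from -0.37 for miR-15b to 0.33 for miR-322, while 5 were above 0 with the median or with the 75th percentile over all probes, and 2 after quantile normalization or with the total gene signal. Relative to the family's median, which removes the scaling of whole arrays, miR-103 was lower by 0.77 and miR-107 by 0.61 between early arousal and post-reproduction, with ranges over the settings of 0.53 to 0.85 and 0.42 to 0.66. Between late torpor and post-reproduction miR-103 was lower by 0.46 and miR-107 by 0.48.

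The likeness of profiles was measured as the Euclidean distance between log2 values over the 3 arrays, each miRNA centred on its own mean. Among the 134 other measured miRNAs the closest to miR-103 were miR-199b* (0.048), miR-199b (0.050) and miR-720 (0.066), beside a median distance of 0.37. The closest to miR-107 were miR-24 (0.039), let-7e (0.044) and miR-127 (0.055), and the closest to miR-33 were miR-29c (0.018), miR-125a-5p (0.028) and miR-872 (0.053). The differences of miR-33 had an SE from spots of 0.097 to 0.11, larger than its 3 distances. With 1 probe each, miR-199b* had an SE of 0.063 to 0.083 and miR-127 of 0.083 to 0.12, also larger than their distances. miR-107 ranked 18 in closeness to miR-103 (0.14), and miR-33 ranked 51 (0.29). With 3 arrays many miRNAs lie this close, so the order describes these arrays alone.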

How the data were processed

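Total RNA was extracted with TRIzol, pooled by stage and hybridised with no change to the manufacturer's protocol, per the labels' protocols. The submitters' processing notes name Agilent Feature Extraction 9.5.3.1. The program, per the file headers, subtracted a spatial trend of the background to give each spot's intensity, without local background subtraction or scaling between arrays. It also wrote the other deposited values, flags for detection and outliers. The series table that the authors deposited equalled the scanner intensity at all 12493 spots of each array (relative tolerance 1e-06), on a linear, uncentred scale, with column medians of 1.05 (early arousal), 1.15 (late torpor) and 1.13 (post-reproduction).

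Control spots and outlier spots (398, 280 and 317 in the same order) were left out, and 0 miRNA spots were saturated. Log2 intensities were averaged over the spots of a probe, and over the probes of a miRNA detected on all arrays, with more than 50% of spots well above background. Spots at or below 0 were set to the lowest spot well above background, which touched no spot of a probe used here for the 3 miRNAs. Arrays were scaled on the 75th percentile of probes detected on all arrays, since 15.9% to 17.9% of probes were detected per array. The SE adds the spots' variances, and 95% intervals are 1.96 SE, so neither holds the spread between probes. The script was tested on simulated data. limma 3.58.1 gave normexp (offset 50), and the rest ran in Python 3.11.15.

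The 3 miRNAs, the lists and the rules were chosen with earlier results of these data known. Named from the lists are the highest and lowest measured member in each comparison, and from likeness the 3 closest miRNAs.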

Additional observations from a re-analysis of the deposited data

How the results depend on the processing

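The comparisons are, in order, early arousal minus late torpor, early arousal minus post-reproduction and late torpor minus post-reproduction. With 1 array per stage, the number of arrays limits every statement, and signal over background limits miR-33. No paired analysis was possible because each stage has 1 sample and no test was made. Of 123 values recomputed under the 9 alternatives, 79 stayed within the 95% interval from spots (counts of miRNAs: within 1.5 times) and 44 moved. Of the 123, 11 changed sign (4 of them miR-33 in the second comparison, 2 miR-33 in the third, 4 miR-107 in the first). A reversed call was recorded for 0 values, but it could not arise for the 3 miRNAs, since none of them passed the rule in the setting used here. No alternative brought miR-33, miR-103 or miR-107 past the rule of size. The scaling moves all miRNAs of a comparison together and the cause was otherwise not tested. The values that moved were, for miR-103, -0.018, -0.50 and -0.49 with the 75th percentile over all probes, while quantile normalization gave -0.13, -0.48 and -0.35. In the first comparison miR-103 was also at -0.075 with the median over the detected probes and at -0.30 with the brightest probe. In the second it was at -0.51 without scaling, -0.39 with the brightest probe, -0.25 with normexp, -0.59 with strict detection and -0.60 with the total gene signal. In the third it was at -0.21 with the median, -0.29 without scaling, -0.33 with strict detection and -0.40 with the total gene signal. For miR-107 the values were 0.16, -0.34 and -0.51 with the 75th percentile over all probes, 0.11, -0.12 and -0.23 with the median, 0.0057, -0.30 and -0.30 after quantile normalization as well as 0.020, -0.41 and -0.43 with the total gene signal. In the second and in the third comparison miR-107 was at -0.35 and -0.31 without scaling and at -0.43 and -0.35 with strict detection. miR-33 was at -0.21 in the second comparison with the total gene signal, and in the third at -0.13 with the 75th percentile over all probes, 0.070 without scaling and -0.044 with the total gene signal. With strict detection, which needs every spot on every array, miR-33 had no value. Of its 10 spots, 8 in early arousal and 9 in post-reproduction were well above background. miR-103 relative to miR-107 was at -0.24 in the first comparison with the brightest probe and at -0.053 in the third after quantile normalization. The count of miRNAs past the rule was 0, 2 and 1 with normexp, beside 4, 5 and 3, and in the third comparison it was 7 with the 75th percentile over all probes (1 higher, 6 lower, beside 3 and 0) and 5 with strict detection. In the second comparison the split of 4 higher and 1 lower was 3 and 3 without scaling, with the 75th percentile over all probes and with the total gene signal. The median of all measured miRNAs in the third comparison was 0.13, and it was -0.26 with the 75th percentile over all probes and -0.059 without scaling.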
